A study of Anopheles gambiae with 104 samples.

Results

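Subjective dawn was set against subjective dusk in the bodies of female Anopheles gambiae mosquitoes held in constant dark. Of the 104 arrays of the study, 10 enter this contrast: 6 arrays from the dawn collections at circadian time (CT) 0, 24 and 48 h, and 4 arrays from the dusk collections at CT12 and CT36, with 2 arrays at each time point. They were chosen by their labelled tissue, light regime and hour alone. The insects were mated, non-blood-fed females of the S form (Pimperena strain), aged 7 to 9 days when sampling began. A body is the mosquito without its head, appendages included, and each time point was a pool of 20 to 30 mosquitoes. Both groups had been kept in a cycle with 11 h of full light and 1 h transitions before the dark. CT0 lay 12 h after the last lights off, so the dawn collections followed 12, 36 and 60 h of darkness and the dusk collections 24 and 48 h. The title of 1 CT0 array gives no hour, and its time was taken from its collection-time label. Bodies in the light:dark cycle (LD, zeitgeber time, ZT, 12 to 60) and heads in constant dark (DD), from the same strain, sex, age and feeding state, serve for comparison.

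Most animal cells keep daily time through a feedback loop in which clock proteins switch on genes whose products later switch the same genes off. In constant dark this loop runs without the light cue that normally sets it each day, so a difference between dawn and dusk that recurs there does not follow a light change at the moment of sampling. In insects such loops run in peripheral tissues, such as the fat body and gut, as well as in the brain. An. gambiae is active at dusk and at night and rests by day. The files name probe sets and not genes: none of the names of Anopheles probe sets matched the gene table used here (0 of 16884). Results are therefore given by probe set identifier, with no gene function attached, and markers of body tissues could not be checked.

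Values are the deposited log2 expression values. A probe set entered the test when its mean over all body arrays exceeded 3.78, the 95th percentile of the probe sets for the malaria parasite Plasmodium falciparum, which should have no target in these unfed females. This left 7325 Anopheles probe sets. Arrays of this contrast had medians from 2.96 to 3.10 over the whole table and from 7.10 to 7.31 over the tested probe sets. The arrays of a time point correlated at 0.986 to 0.993 over tested probe sets, which are not independent replicates. Whether the paired arrays at a time point represent separate pools is not stated in the labels, so p-values measure only the spread between time points, and the number of arrays limits the precision.

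In bodies in constant dark 147 probe sets differed between subjective dawn and dusk, which is 2.01% of those tested (limma, Benjamini-Hochberg adjusted p under 0.05, called below). Of these, 67 were higher at dawn (0.915%) and 80 were lower at dawn (1.09%). The probe sets higher at dawn had a median difference of 1.97-fold (quartiles 1.67 and 2.55), and the largest was 8.33-fold. Those lower at dawn had a median of 2.25-fold (quartiles 1.74 and 3.32), and the largest with both means above the background cutoff was 6.74-fold. The median absolute difference over all tested probe sets was 1.11-fold. In whole bodies, fewer cells of a type and less RNA per cell cannot be told apart.

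The test was limma on the 13 time point means of the arm, with 6 times of day as groups and 7 residual degrees of freedom. Of the 147 calls, 134 were at least 1.5-fold (1.83% of those tested). At an unadjusted p under 0.05 the fit gave 1028 probe sets, or 14% of those tested. The same fit over the 4502 P. falciparum probe sets called 0, with 90 (2%) at an unadjusted p under 0.05. Most of these lay under the cutoff that tested probe sets had to exceed, so the 0 says little about false calls at higher levels. The 5 means alone, with 3 residual degrees of freedom, gave 27 higher and 44 lower, and replicate 1 arrays alone gave 23 and 51, replicate 2 arrays alone 22 and 34, all arrays taken one by one 270 and 245, and no filter on low values 34 and 50. The counts of higher and lower probe sets were 31 and 53 without CT0, 21 and 38 without CT24, 37 and 62 without CT48, 17 and 24 without CT12, and 33 and 32 without CT36.

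The called probe sets kept apart at every time point. In all 147 the lowest mean of one group lay above the highest mean of the other, as it did in 2212 of all tested probe sets (30.2%), and all 147 had the same sign on replicate 1 and on replicate 2 arrays alone, as did 4932 of all tested. The calls were made on these same values, so the counts describe the calls and do not support them. The median SD between the 3 dawn means was 0.17 on the log2 scale in called probe sets and 0.16 in all tested, and between the 2 dusk means 0.14 and 0.12. Large differences were not all called. Of 153 tested probe sets with at least a 2-fold difference 79 were called, and of 28 with at least a 4-fold difference 19 were called.

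Among called probe sets the largest excess at dawn was that of Ag.2L.11.1_CDS_s_at, and a tested probe set with a larger one, 10.8-fold, was not called. Its log2 values on replicates 1 and 2 were 11.12 and 11.02 at CT0, 11.51 and 11.65 at CT24, and 10.61 and 10.99 at CT48, against 7.88 and 8.35 at CT12 and 8.09 and 8.04 at CT36. All 6 dawn arrays lay above all 4 dusk arrays. Dawn and dusk means without overlap were a condition for naming a probe set of this contrast. The dawn mean was 11.15 ± 0.40 (SD, n = 3 time points) and the dusk mean 8.09 ± 0.04 (n = 2), a difference of 3.06 (SE 0.44) or 8.33-fold, with a limma adjusted p of 0.0078. Its 1 partner, a probe set with the same arm and cluster number in its name, was also called and differed by 2.73.

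Next among called probe sets came Ag.UNKN.96.1_CDS_a_at, whose name gives no chromosome arm. Its log2 values were 7.74 and 7.84 at CT0, 7.76 and 7.69 at CT24, and 7.51 and 7.54 at CT48, against 5.15 and 5.45 at CT12 and 4.41 and 4.13 at CT36. The dawn arrays lay within a narrow band and the dusk time points apart from each other, with no overlap between groups. The means were 7.68 ± 0.14 and 4.78 ± 0.73, a difference of 2.89 (95% interval 1.90 to 3.89) or 7.44-fold, with a limma adjusted p of 0.0110. Its 1 partner differed by 2.31 and was not called.

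Among called probe sets lower at dawn, Ag.3L.332.0_CDS_at and Ag.3R.52.0_CDS_at had the largest differences of measured means, and the first lay near background at dawn. Its log2 values were 2.60 and 3.23 at CT0, 3.25 and 3.43 at CT24, and 2.68 and 3.94 at CT48, against 5.95 and 6.13 at CT12 and 6.05 and 5.66 at CT36. The dusk arrays lay above every dawn array. The dawn mean of 3.19 ± 0.24 was under the background cutoff, so the dusk mean of 5.95 ± 0.13 was at least 4.50-fold higher than dawn, counted from that cutoff (difference of measured means -2.76, limma adjusted p = 0.0115).

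Ag.3R.52.0_CDS_at was lower at dawn at a level well above the cutoff. Its log2 values were 8.22 and 8.25 at CT0, 8.03 and 8.29 at CT24, and 8.28 and 8.65 at CT48, against 11.07 and 10.99 at CT12 and 10.99 and 11.10 at CT36. The 4 dusk arrays ran from 10.99 to 11.10 and lay above all dawn arrays. The means were 8.29 ± 0.16 and 11.04 ± 0.01, a difference of -2.75 (95% interval -3.49 to -2.02), which makes dusk 6.74-fold higher, with a limma adjusted p of 0.00337. It stayed called under all 16 alternatives tried, with a highest limma adjusted p of 0.0356. Ag.2L.11.1_CDS_s_at was no longer called without CT12 (limma adjusted p = 0.0729), without CT36 (0.0603) or with no filter (0.0516), and Ag.UNKN.96.1_CDS_a_at without CT36 (0.0879) or with no filter (0.0655). Ag.3L.332.0_CDS_at was no longer called on replicate 2 arrays alone (limma adjusted p = 0.140), without CT12 (0.104), without CT36 (0.0703) or with no filter (0.0674).

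**Figure D1:**
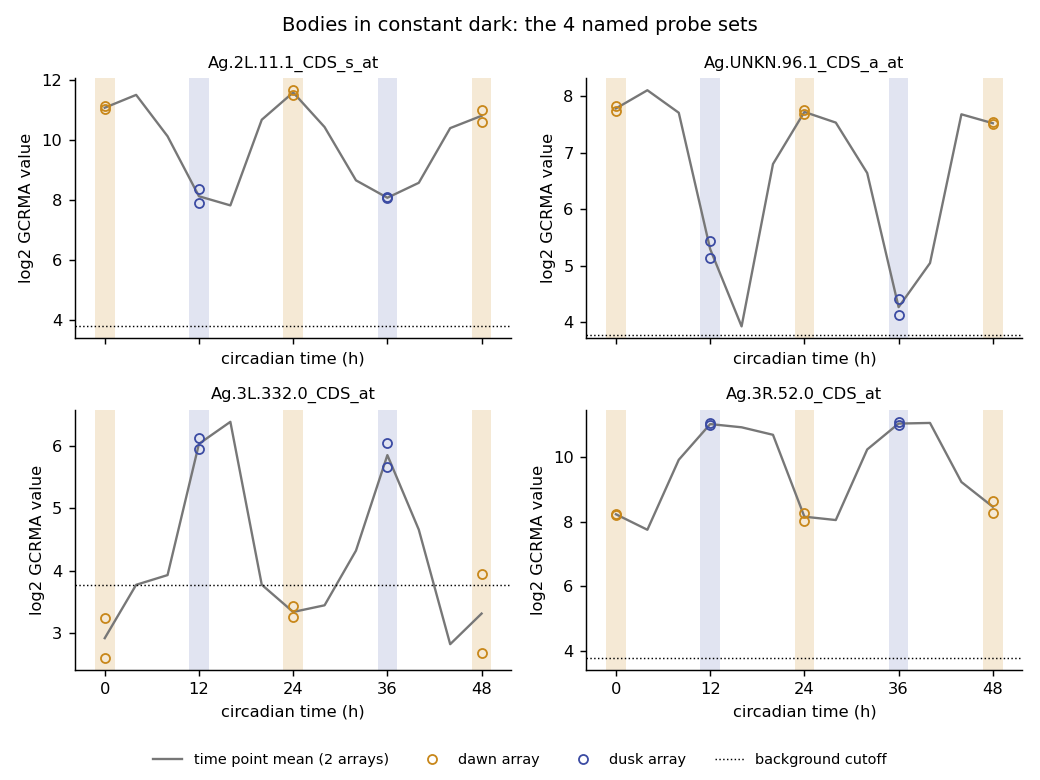
Log2 expression value against circadian time (h) of the 4 named probe sets in bodies in constant dark. Lines join the means of 2 arrays, and circles are single dawn and dusk arrays. Bands mark dawn and dusk hours, and the dotted line is the background cutoff of 3.78. Dawn and dusk arrays do not overlap in any panel, and means without overlap were a condition of being named. Ag.3L.332.0_CDS_at lies near or under the cutoff at dawn.

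The highest and lowest of the 6 time-of-day means, dawn and dusk included, describe how the called probe sets moved over the day. The calls used the dawn and dusk means, which favours those hours in these counts. The same counts over all tested probe sets were not made. Of the 67 probe sets higher at dawn, 47 had their highest time-of-day mean at dawn, 9 in the early day, 9 late at night, and 1 each in the late day and early night. The lowest mean fell at dusk in 50, in the early night in 10 and in the late day in 7. Of the 80 lower at dawn, 57 were highest at dusk, 17 in the early night and 6 in the late day. Their lowest mean was less tied to dawn: it fell at dawn in 44, in the early day in 35 and in the late day in 1.

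The neighbouring hours carried the same order. The mean of late night and early day minus the mean of late day and early night was above 0 in 67 of the 67 probe sets higher at dawn, with a median of 0.37 on the log2 scale. It was below 0 in 77 of the 80 lower at dawn, with a median of -0.57. Over all tested probe sets 59.3% were above 0, with a median of 0.03. These arrays were not in the contrast, but their spread entered its error estimate. In the set lower at dawn most of the difference lay between early day and early night (median -0.90), and late night minus late day came to -0.20. In the set higher at dawn these medians were 0.34 and 0.33.

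**Figure D2:**
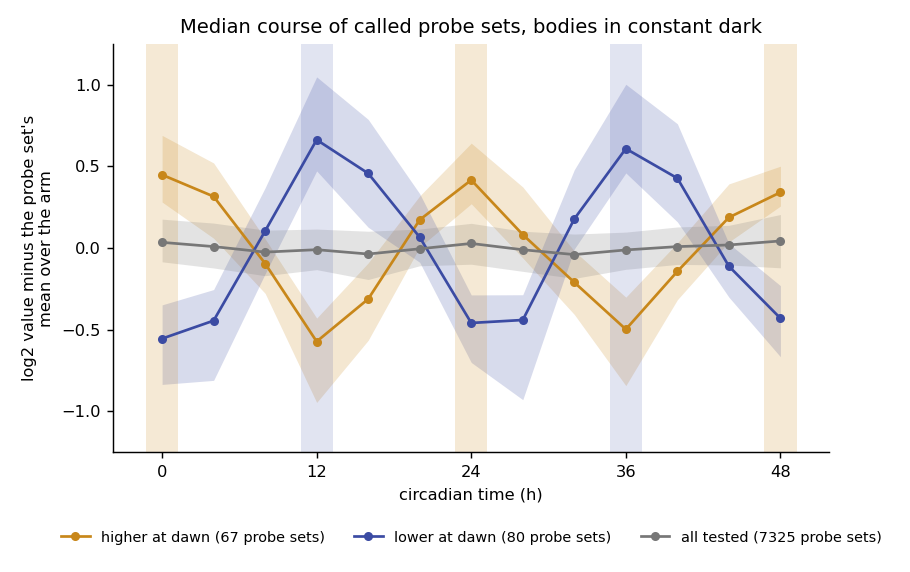
Median log2 value, centred on each probe set's mean over the arm, against circadian time (h) for the 67 probe sets higher at dawn, the 80 lower at dawn and all 7325 tested, with bands for the quartiles. The medians of the called sets cross between dawn and dusk and turn again in the second day, and the median of all tested stays near 0.

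**Figure D3:**
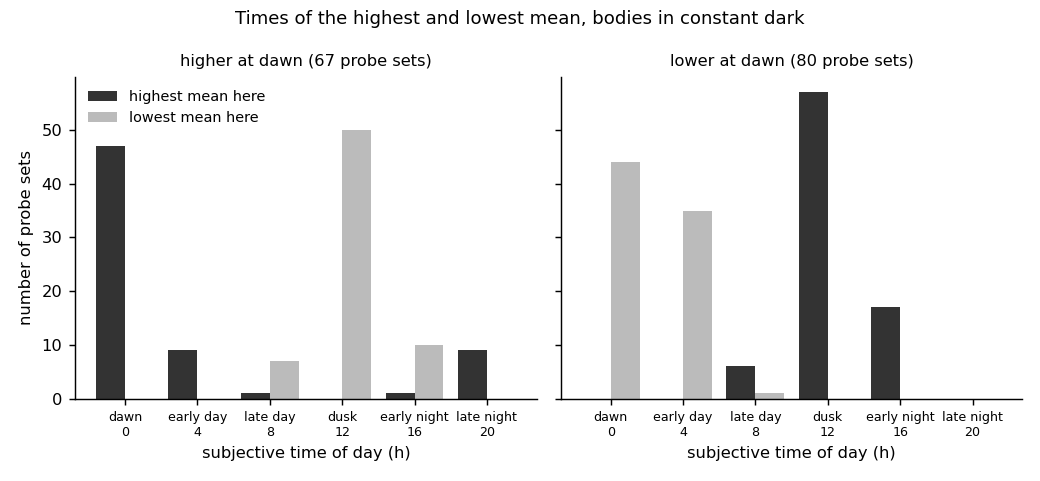
Number of called probe sets (bars from 0) whose highest or lowest time-of-day mean fell at each subjective time of day (h). In the set lower at dawn the lowest mean is shared between dawn (44) and early day (35), and the highest lies mostly at dusk (57). The dawn and dusk means were also used for the calls.

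The size of the difference can be given for each day in the dark. Both days entered the calls, so these values describe the called probe sets and are no separate test of recurrence. In the set higher at dawn the median of CT0 minus CT12 was 1.05 and that of CT24 minus CT36 was 1.00. In the set lower at dawn the medians were -1.31 and -1.05, and over all tested they were 0.045 and 0.037. The first day gave the larger difference in 38 of 67 and in 48 of 80, and over all tested CT0 minus CT12 exceeded CT24 minus CT36 in 3772 of 7325. CT48, the last collection, was the lowest of the 3 dawn means in 33 of the 67 probe sets higher at dawn, and in 2483 of 7325 overall. CT0 was the lowest dawn mean in 42 of the 80 lower at dawn, and in 2755 of 7325 overall.

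RNA quality readings moved along the dawn collections. The 3′ minus 5′ difference of Gapdh, a glycolytic enzyme whose probe sets cover both ends of the transcript, was 3.85 at CT0, 4.72 at CT24 and 5.46 at CT48, against 4.57 at CT12 and 4.56 at CT36. For actin, a cytoskeletal protein, it was 2.32, 2.96 and 3.59 at dawn against 2.77 and 2.56 at dusk. The dusk values lay inside the range of the dawn values for both, and dawn and dusk did not differ beyond that range (exact permutation p = 0.7 two-sided for each; the smallest that 3 against 2 allows is 0.1). The part of RNA quality in the results was not tested. The Gapdh 3′ probe set itself was 12.86 ± 0.02 at dawn and 12.97 ± 0.07 at dusk, with no overlap (exact permutation p = 0.1, the smallest possible; limma adjusted p = 0.740). The probe set for the middle of actin was also lower at dawn with no overlap, 11.65 ± 0.04 against 11.93 ± 0.06 (exact permutation p = 0.1; limma adjusted p = 0.274).

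The first principal component of the 5 means over tested probe sets held 43.9% of the variance and put CT0, CT24 and CT48 at -11.5, -12.6 and -11.7, against 20.9 for CT12 and 15.1 for CT36. The second, with 28.1%, ran from 19.8 at CT0 to -2.34 at CT24 and -16.6 at CT48, with dusk between at 3.10 and -4.00. The median of dawn minus dusk over all tested probe sets was 0.05, with 4369 above 0 and 2956 below, and that of the P. falciparum probe sets was -0.04. Quantile normalization moved the first to 0.02 and gave 55 higher and 85 lower.

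Called probe sets were found at every level and on every chromosome arm, and the called share rose with level. Ordered by mean level and cut into 4 equal groups, the tested probe sets had 0.819%, 2.02%, 2.29% and 2.89% called from the lowest level to the highest. By chromosome arm the share ran from 1.63% on X (5 higher and 4 lower of 551) to 2.37% on 2L (20 higher and 19 lower of 1644). The 147 called probe sets fell into 138 clusters. In 10 pairs of partners both were called, and all 10 pairs went the same way, with a median gap of 0.31 on the log2 scale. Where only 1 of a pair was called, its partner had the same sign in 21 of 22. Over all 1190 pairs of tested partners the median gap was 0.14, and how many had the same sign was not counted.

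Many called probe sets had a higher level in bodies than in heads. Against heads in constant dark, 77 of 147 (52.4%) were at least 4-fold higher in bodies over the arm, and over all tested 1439 of 7325 (19.6%) were. The median body minus head level was 2.23 on the log2 scale, against 0.75 over all tested. The share was 52.2% in the set higher at dawn and 52.5% in the set lower. In heads 93 of the 147 passed the filter on low values (63.3%), against 6075 of 7325 (82.9%).

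The same contrast in the light:dark cycle asks whether these differences also appear with light as a cue. It used the dawn arrays at ZT24 and ZT48 and the dusk arrays at ZT12, ZT36 and ZT60, none of which is shared with the dark arm. In LD 1042 of 7325 probe sets were called (14.2%), 599 higher at dawn (8.18%) and 443 lower (6.05%). Of the 67 probe sets higher at dawn in the dark, 41 were called higher in LD (61.2% of this list and 6.84% of the LD list), 2 were called lower and 59 had the same sign. Of the 80 lower at dawn in the dark, 41 were called lower in LD (51.2% of this list and 9.26% of the LD list), 5 were called higher and 66 had the same sign. The median LD difference was 1.20 in the first set and -0.87 in the second, and 0.01 over all tested, of which 51.3% were above 0 in LD.

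The difference between the regimes was tested with limma over the 26 time points of both arms together. The dawn minus dusk difference itself differed between DD and LD in 562 of 7325 probe sets (7.67%), 277 with the higher value in DD (3.78%) and 285 with the higher value in LD (3.89%). It was larger in LD in 479 of these and larger in DD in 83, and the signs were opposite in 371. Over all tested, the LD difference was the larger in 4422 (60.4%) and the signs were opposite in 3521 (48.1%). Of the 562, 56 were called in the dark, 445 in LD and 94 in neither. In 25 of the 562 both dark means were under the background cutoff (4.45%), as in 234 of all tested (3.19%). The count was 307 without CT36 and 274 without ZT24, and replicate 1 or replicate 2 arrays alone gave 345 and 264 and arrays one by one 1201. The Gapdh 3′ minus 5′ difference ran from 3.85 to 5.46 over the 5 dark time points and from 2.28 to 3.81 over the 5 LD time points; its part in the result was not tested, and regime and collection cannot be told apart.

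Ag.2L.11.1_CDS_s_at and Ag.2R.628.0_CDS_at had a smaller dawn excess in the dark than in LD. The LD time point means of the first were 12.62 at ZT24 and 11.62 at ZT48, against 2.51, 2.36 and 2.81 at ZT12, ZT36 and ZT60. The LD dusk means lay under the background cutoff, so LD dawn was at least 324-fold higher, and in the dark the dusk level of 8.09 stood well above that cutoff. Counted from the cutoff, dawn exceeded dusk by at least 8.34 in LD, against 3.06 in the dark, a gap of -5.28 or beyond, and the gap of the measured means was -6.50 (limma adjusted p = 3.37e-05). For Ag.2R.628.0_CDS_at the LD means were 11.11 ± 0.01 at dawn and 3.81 ± 0.91 at dusk, and DD means 12.15 ± 0.26 and 10.96 ± 0.04, which was not called in the dark (limma adjusted p = 0.0674). Its LD dusk values were 2.99 at ZT12 and 3.67 at ZT36, both under the cutoff, and 4.78 at ZT60. The regimes differed by -6.11 (limma adjusted p = 3.26e-06), a gap of measured means that rests on LD dusk values near background.

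In the other direction, Ag.3R.29.0_CDS_at had LD means of 3.21 ± 0.21 at dawn and 11.03 ± 0.23 at dusk, with the dawn mean under the cutoff. In the dark it lay under the cutoff at both times, at 2.35 ± 0.01 and 2.38 ± 0.07, and the gap of the measured means was 7.79 (limma adjusted p = 2.18e-10). Ag.2L.24.0_CDS_s_at had LD means of 6.52 ± 0.70 and 12.72 ± 0.11 and dark means under the cutoff, 2.16 ± 0.07 and 2.12 ± 0.05 (gap of the measured means 6.23, limma adjusted p = 3.15e-05). Both lay under the cutoff at every dark time point and passed the filter, a mean over all body arrays, through their LD values. For Ag.3R.29.0_CDS_at the dusk level seen in LD was not detected in the dark. For Ag.2L.24.0_CDS_s_at the lowest LD mean was 6.03, at ZT48, so its LD level at every hour, dawn included, was not detected in the dark.

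The 4 probe sets named for the dark contrast were all called in LD in the same direction as in the dark. The LD limma adjusted p was 7.66e-06 for Ag.2L.11.1_CDS_s_at, 0.0149 for Ag.UNKN.96.1_CDS_a_at, 4.60e-05 for Ag.3L.332.0_CDS_at and 0.000526 for Ag.3R.52.0_CDS_at. The size of the difference varied between regimes. Ag.3R.52.0_CDS_at was lower at dawn in both regimes: LD means were 5.68 ± 0.22 at dawn and 8.01 ± 0.50 at dusk, a difference of -2.33 against -2.75 in the dark. The test of the gap of -0.42 did not pass (limma adjusted p = 0.648). Ag.3L.332.0_CDS_at lay under the cutoff at dawn in both regimes, so only bounds can be read: dusk was at least 25.9-fold higher in LD and at least 4.50-fold higher in the dark, and the gap of the measured means was 2.73 (limma adjusted p = 0.0144). Ag.UNKN.96.1_CDS_a_at had LD means of 6.01 ± 0.51 at dawn and 4.56 ± 0.60 at dusk, and its highest LD means came late in the day, at 8.86 and 8.82. Its gap between regimes was 1.45 (limma adjusted p = 0.153).

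A group of 7 probe sets, picked out after their values were seen, was called in both regimes in opposite directions. Of the 67 higher at dawn in the dark 2 were called lower in LD, against 6.05% of all tested. Of the 80 lower at dawn 5 were called higher in LD, against 8.18% of all tested. Neither count exceeds the share over all tested, so the 7 are given as single cases. Ag.2L.223.0_CDS_at was lower at dawn in the dark, with means of 7.65, 7.50 and 6.22 at CT0, CT24 and CT48 against 8.81 and 10.14 at CT12 and CT36. In LD it was higher at dawn, with 11.69 and 11.63 at ZT24 and ZT48 against 10.47, 10.90 and 10.87 at dusk. The groups did not overlap in either regime. The regimes differed by -3.26 (limma adjusted p = 0.0011). Ag.X.218.0_UTR_at did the reverse, at 6.26 over 4.97 in the dark and 8.07 under 9.09 in LD (difference 2.31, limma adjusted p = 0.000328).

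**Figure D4:**
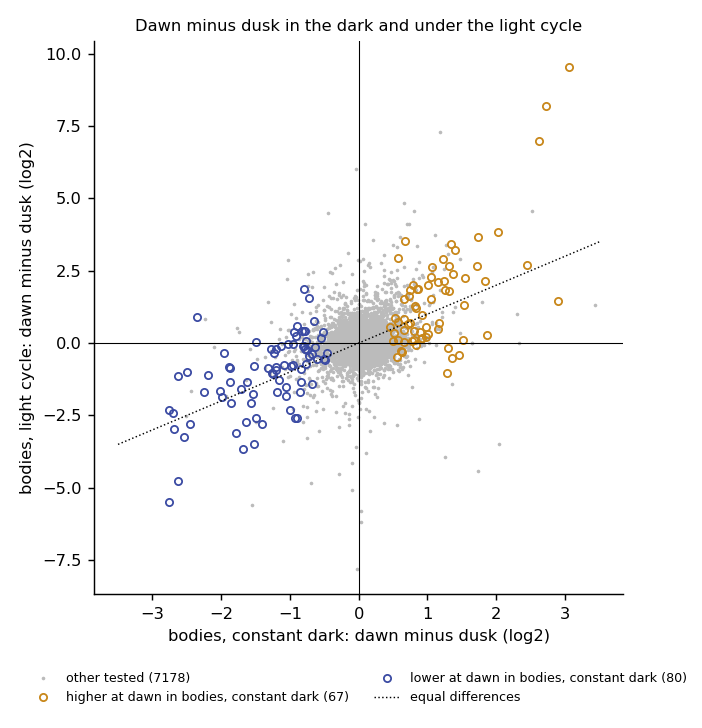
Dawn minus dusk difference (log2) in bodies in the light cycle against that in constant dark, 1 point per tested probe set, with called probe sets of the dark contrast as circles and equality dotted. Of the circles, 59 of 67 and 66 of 80 have the same sign in both regimes, and a few points reach past 7 log2 units in the light cycle but not in the dark.

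Heads in constant dark were separated from mosquitoes collected at the same time points and show whether the body differences were shared. In heads 288 of 7188 probe sets were called (4.01%), 134 higher at dawn (1.86%) and 154 lower (2.14%). Of the probe sets higher at dawn in bodies, 41 passed the filter in heads. Of these, 7 were called the same way (17.1% of the 41, 5.98% of the heads list among shared probe sets), 34 had the same sign and the median head difference was 0.53. Of those lower at dawn, 52 passed in heads. Of these, 25 were called the same way (48.1%, and 20% of the heads list), 1 the opposite way, 49 had the same sign and the median was -0.87. Over the 6075 shared probe sets the median in heads was 0.02, and 3193 (52.6%) were above 0 in heads.

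The body minus head difference of the contrast was tested over 8438 probe sets that passed in either tissue. It differed in 138 (1.64%), 77 with the higher value in bodies (0.913%) and 61 with the higher value in heads (0.723%). The difference was larger in heads in 88 and larger in bodies in 50, and 47 of the 138 were called in bodies and 76 in heads. How often it was larger in heads over all 8438 was not counted. The count was 87 without CT0, 71 without CT24, 27 without CT12 and 66 without CT36, and 71 and 65 on replicate 1 and replicate 2 arrays alone, 87 with no filter and 494 with arrays one by one.

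The probe sets named here differed mainly in heads. Ag.3R.2620.0_at and Ag.3L.1831.0_CDS_at passed the filter through their head values alone. They lay under the body cutoff at every body time point, so their body values could show no difference above background. Ag.3R.2620.0_at was 10.14 ± 0.81 at dawn and 3.21 ± 0.25 at dusk in heads, at least 84.3-fold higher at dawn since its dusk mean was under the cutoff, and under the cutoff in bodies at both times, 2.71 ± 0.01 and 2.72 ± 0.01 (gap of the measured means -6.94, limma adjusted p = 0.00724). Ag.2L.324.0_CDS_a_at was 10.89 ± 0.22 and 6.30 ± 0.81 in heads and 5.64 ± 0.17 and 5.21 ± 0.03 in bodies (-4.16, limma adjusted p = 0.00308). In the other direction, Ag.2L.911.0_CDS_a_at was 4.68 ± 0.10 at dawn and 8.64 ± 0.15 at dusk in heads, against 4.86 ± 0.28 and 5.15 ± 0.02 in bodies (3.67, limma adjusted p = 0.00720). Ag.3L.1831.0_CDS_at was 3.88 ± 0.21 and 7.48 ± 0.63 in heads and under the cutoff in bodies, 2.35 ± 0.01 and 2.36 ± 0.01 (3.59, limma adjusted p = 0.00157). The body values of all 4 moved by less than a log2 unit between dawn and dusk.

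**Figure D5:**
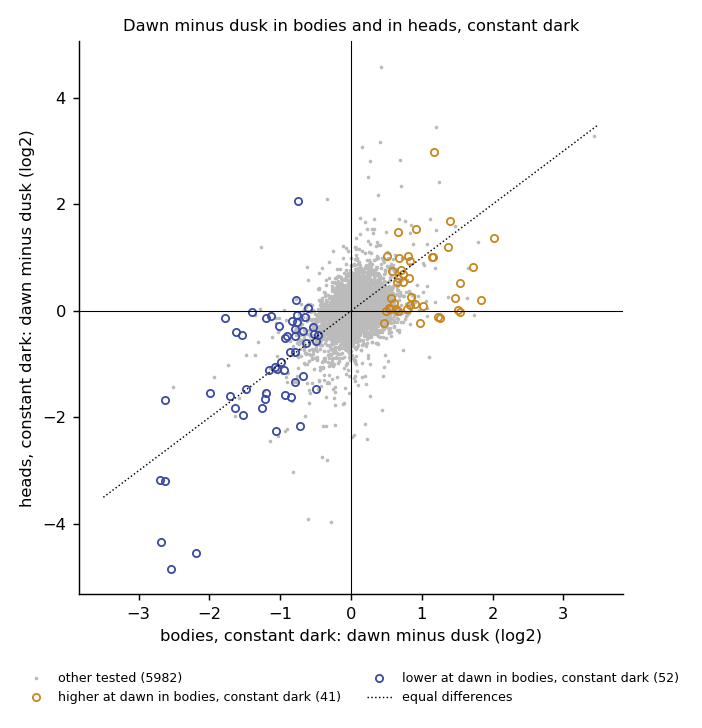
Dawn minus dusk difference (log2) in heads against that in bodies, both in constant dark, 1 point per probe set that passed in both tissues, with called probe sets of the body contrast as circles and equality dotted. The circles lower at dawn in bodies mostly lie below 0 in heads as well (49 of 52), and those higher at dawn lie closer to 0 in heads.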

How the data were processed

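Per the labels' protocols, pooled RNA was amplified and labelled by 3′ in vitro transcription. The authors deposited 1 log2 value per probe set and array from GCRMA, per the submitters' processing notes, which corrects background by probe sequence, normalizes between arrays and summarizes probes. Its version, and the set of arrays it was run on, were not given in the sources used here. Groups came from the labels. The table holds 22761 probe sets, 16884 of them Anopheles and 4502 P. falciparum, and the other kinds were left out of the tests.

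The 2 arrays of a time point were averaged. Dawn minus dusk was tested with limma 3.58.1 in R 4.3.3 on 13 time point means per arm (6 times of day), with Benjamini-Hochberg adjustment over all tested probe sets and a threshold of 0.05. DD and LD were compared in a joint fit, and bodies and heads as body minus head at each time point. Controls used exact permutation. The background cutoff was 3.78 in bodies and 3.75 in heads. Named probe sets were the 2 called with the largest difference of measured means in each direction of each comparison, with the tested difference of the same sign in both replicates. No overlap between dawn and dusk was also required for the dark contrast and for body minus head values, not for DD against LD. The contrast, lists and tests were chosen with earlier results of these data known. Gene lists and tissue markers could not be assigned (0 names matched the 15165 genes of assembly idAnoGambNW_F1_1), so they were not run.

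On simulated data with 200 changed probe sets of 7325, the dark contrast recovered 22.4%, 67.2% and 93.9% of differences of 0.5, 1 and 2 on the log2 scale. Of its calls 7.58% were false. Recovery was 11.9%, 52.2% and 89.4% for DD against LD, and 0%, 43.3% and 87.9% for bodies against heads. This was 1 run with independent normal noise for each probe set and time point. Shared movement of probe sets and drift over the hours were not simulated, so these rates may not hold for the real arrays. Alternatives were another normalization, filters, replicates alone, arrays one by one, a replicate block, hours in the dark as a covariate, a trended robust fit, a fold minimum and leaving out each time point.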

Additional observations from a re-analysis of the deposited data

Results flagged for a closer look

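These results stand out because the dawn minus dusk difference itself differed between light regimes or between tissues, by a limma test of that difference. Between DD and LD, 562 probe sets of bodies differed. By measured means the largest were Ag.3R.29.0_CDS_at (7.79) and Ag.2L.24.0_CDS_s_at (6.23), both under the background cutoff throughout the dark. They passed the filter through their LD values. The other way, the largest were Ag.2L.11.1_CDS_s_at (-6.50) and Ag.2R.628.0_CDS_at (-6.11), where the dawn excess was smaller in the dark. The first of this pair lay under the background cutoff at LD dusk, and its gap counted from the cutoff was -5.28. The second had an LD dusk mean of 3.81, just above the cutoff of 3.78, with ZT12 and ZT36 under it. Called in opposite directions in the 2 regimes were 7 probe sets, among them Ag.X.218.0_UTR_at (2.31), Ag.2L.458.0_CDS_a_at (1.05), Ag.2L.223.0_CDS_at (-3.26) and Ag.2R.1439.0_CDS_at (-2.66). Over all tested, 6.05% were called lower and 8.18% higher at dawn in LD.

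Between bodies and heads in the dark, 138 probe sets differed. By measured means the largest were Ag.2L.911.0_CDS_a_at (3.67) and Ag.3L.1831.0_CDS_at (3.59), with Ag.3R.2620.0_at (-6.94) and Ag.2L.324.0_CDS_a_at (-4.16) the other way. In these 4 the dawn and dusk values lay further apart in heads than in bodies. Ag.3L.1831.0_CDS_at and Ag.3R.2620.0_at lay under the cutoff in bodies and passed the filter through their head values alone.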

How the results depend on the processing

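Counts below are probe sets higher at dawn, lower at dawn, differing between DD and LD, and differing between bodies and heads, which were 67, 80, 562 and 138. They were 270, 245, 1201 and 494 with arrays one by one, and 262, 239, 1230 and 495 with the replicate number as a block on those arrays. It is not known whether the replicate numbers pair the samples across time points. The replicate difference correlated between time points with a median of 0.05 (range -0.23 to 0.39), over 0.1 in 27 of 78 pairs. Replicate 1 alone gave 23, 51, 345 and 71, and replicate 2 alone 22, 34, 264 and 65. No filter on low values gave 34, 50 and 87 (higher, lower, bodies and heads), and the 5 means alone 27 and 44. Leaving out 1 time point gave 17 to 37, 24 to 62, 274 to 778 and 27 to 106, which has fewer means by construction. Calls kept in every such fit numbered 9 of 67 and 15 of 80. None of the 147 was called in the opposite direction in any fit. Their dawn and dusk means did not overlap, so leaving out 1 time point could not reverse a sign. The signs on each replicate alone were also already the same, so the lack of reversals is no separate support. Quantile normalization, a stricter filter, hours in the dark as a covariate, a trended robust fit and a 1.5-fold minimum kept each count within 1.5 times, as did a filter on dark arrays only (chosen after seeing the data) for the counts it was run on, which leave out DD against LD. Near the background cutoff only a direction and a bound can be read.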
